A study of Mus musculus with 36 samples.

Results

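Osteocalcin is the small calcium-binding protein that osteoblasts secrete into bone matrix. Its genes were followed here with every probe whose symbol on the array is Bglap1 or Bglap2, which are 2 of the 18138 symbols and 4 of the 25697 probes. RNA of intact femora and of fracture callus was measured in mice without RAG1 and in wild-type mice, to ask how bone healing runs without mature T and B cells. The groups were RAG1-/- and WT, each as intact femur (D0) and as callus from 5 later days (D3, D7, D14, D21, D28), the left femoral shaft having been broken by a closed fracture and held with an intramedullary pin. All mice were males of 8 weeks on a C57BL/6N background. The tissue was callus with the adjoining shaft, cleared of soft tissue, and at D0 the same stretch of an intact femur. A single RNA pool from 5 mice stood for each group and was hybridised to 3 arrays, so that 36 arrays stand for 12 pools. The p-values within a day therefore measure the spread between arrays of a pool and not the spread between mice.

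Osteocalcin belongs to the most specific products of mature osteoblasts and is laid down late, once the collagen matrix begins to mineralize. The protein is carboxylated on glutamate residues by a vitamin K-dependent enzyme, which lets it bind hydroxyapatite, and a part of it reaches the blood, where its form without these carboxyl groups has been described as a hormone in mice. The mouse carries a cluster of osteocalcin genes on chromosome 3. In the RefSeq annotation of GRCm38.p6 Bglap2 and Bglap stand in the order Gm21956, Bglap2, Gm6821, Bglap and Pmf1. The array's synonyms for its Bglap1 (mOC-A and OG1) are those of the current gene Bglap. RefSeq lists the symbol Bglap1 itself under both Bglap and Bglap2, so the array's Bglap1 was taken as Bglap from these synonyms. Bglap and Bglap2 are both expressed in osteoblasts and are close copies of each other. How far each probe also binds transcripts of the other gene was not tested.

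Transcription of osteocalcin in osteoblasts is known to depend on RUNX2 and ATF4, and the RefSeq promoter of Bglap shows elements of both. The last 150 bases before its transcription start are printed to show them, at chr3:88384467-88384616 of GRCm38.p6 on the minus strand, with 3 motifs in capitals. From the left these are ACCACA (the core bound by RUNX2, 132 bases before the start), TTACATCA (the ATF4 element called OSE1, 54 bases before it) and TATAAA (the TATA box, 27 bases before it).
Bglap promoter: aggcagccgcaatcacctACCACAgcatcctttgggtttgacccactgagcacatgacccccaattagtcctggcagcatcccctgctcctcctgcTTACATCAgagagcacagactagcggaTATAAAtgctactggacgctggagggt
In the 250 bases before the start, on either strand, these letters occur in 14%, 0.965% and 12.4% of the 32851 mouse promoter windows. A match in sequence is a description and was not set against binding in these samples.

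The deposited values are log2 intensities. Of the 4 probes, 3 had a mean over all arrays above 4.72, the median of all probes, and were tested among 12848 probes. These are ILMN_2610166 (Bglap1, transcript variant 2, mean 11.33), ILMN_3101908 (Bglap1, transcript variant 1, mean 10.43) and ILMN_2944508 (Bglap2, mean 12.22). The fourth, ILMN_3028702, is another probe for Bglap1 variant 1 with a mean of 4.59 near the floor of the array.

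Some arrays stood apart from the rest. On the first principal component, which held 34.6% of the variance, the 6 WT arrays of D3 and D7 lay at 91.5 to 99.5, and the other 30 arrays at -39.7 to 22.2. Replicates 2 and 3 of WT D14 correlated more closely with RAG1-/- D21 arrays (0.984 for each at most) than with their own replicate 1 (0.950 and 0.948). The only Rag1 probe ranged over 4.40 to 4.90 in the 18 RAG1-/- arrays and over 4.34 to 6.80 in the 18 WT arrays. No source used here places it relative to the deletion, so it does not check the labels.

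**Figure D1:**
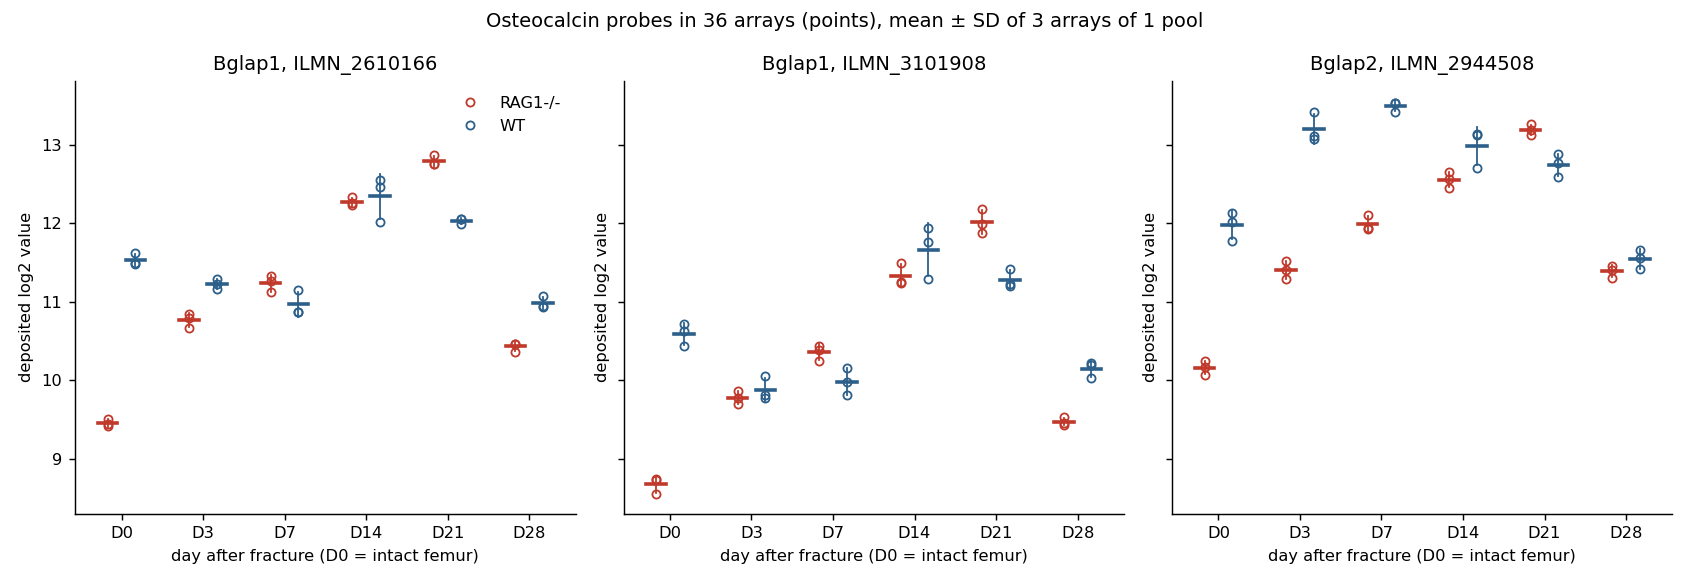
Deposited log2 values of the 3 tested osteocalcin probes in all 36 arrays, by day after fracture, with RAG1-/- left of WT. Open circles are arrays, thick bars the mean and thin lines the SD of the 3 arrays of a pool. In RAG1-/- mice the levels climb to a peak at D21 in every panel, and in WT mice the Bglap2 panel is highest at D7, where the Bglap1 panels are low.

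In intact femora both osteocalcin genes were lower in RAG1-/- mice than in WT mice, by 3.51- to 4.21-fold over the 3 tested probes. Bglap1 variant 2 had log2 values of 9.45, 9.42 and 9.51 in RAG1-/- femora, against 11.48, 11.62 and 11.50 in WT femora. Bglap1 variant 1 had 8.73, 8.74 and 8.55 in RAG1-/- femora and 10.63, 10.71 and 10.43 in WT femora. Bglap2 had 10.25, 10.16 and 10.07 in RAG1-/- femora and 12.02, 12.13 and 11.78 in WT femora. No RAG1-/- array reached the lowest WT array of its probe, as was so for 15.6% of all tested probes. The log2 difference, RAG1-/- minus WT, was -2.08 for Bglap1 variant 2 (SE 0.123, adjusted p = 3.52e-13, limma). It was -1.91 for variant 1 (SE 0.146, adjusted p = 6.08e-11, limma) and -1.81 for Bglap2 (SE 0.134, adjusted p = 3.12e-11, limma). A difference between genotypes passed at an adjusted p under 0.05, which 6.72% of all tested probes did in the lower direction at D0 and 12.6% in the higher. In a bulk sample, fewer osteoblasts and less osteocalcin RNA in each osteoblast cannot be told apart.

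The lower osteocalcin level stood against higher levels of most other osteoblast genes in the same arrays. Of 25 tested products of osteoblasts and osteocytes, osteocalcin left out, 14 were higher and 2 lower, with 9 not passing, with a median log2 difference of 0.80, against 12.8% higher, 7.39% lower and a median of 0.05 over the 10291 genes tested by their brightest probe. The higher ones included Panx3, a channel protein of osteoblasts and prehypertrophic chondrocytes (log2 difference 5.52), and Ifitm5, an osteoblast membrane protein needed for normal mineralization (4.39). Col1a1, an alpha chain of type I collagen, was at 12.49 to 12.64 in RAG1-/- femora and at 10.21 to 10.52 in WT femora (2.20). Ibsp, the matrix protein bone sialoprotein, was at 10.59 to 10.87 in RAG1-/- femora and at 8.57 to 8.86 in WT femora (2.01). The 2 lower genes of the list were Spp1 and Ank. Spp1, osteopontin, which osteoblasts and osteoclasts both make, was at 7.51 to 7.82 in RAG1-/- femora and at 9.07 to 9.93 in WT femora (-1.92), and Ank, which exports the mineralization inhibitor pyrophosphate from cells, differed by -1.06.

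**Figure D2:**
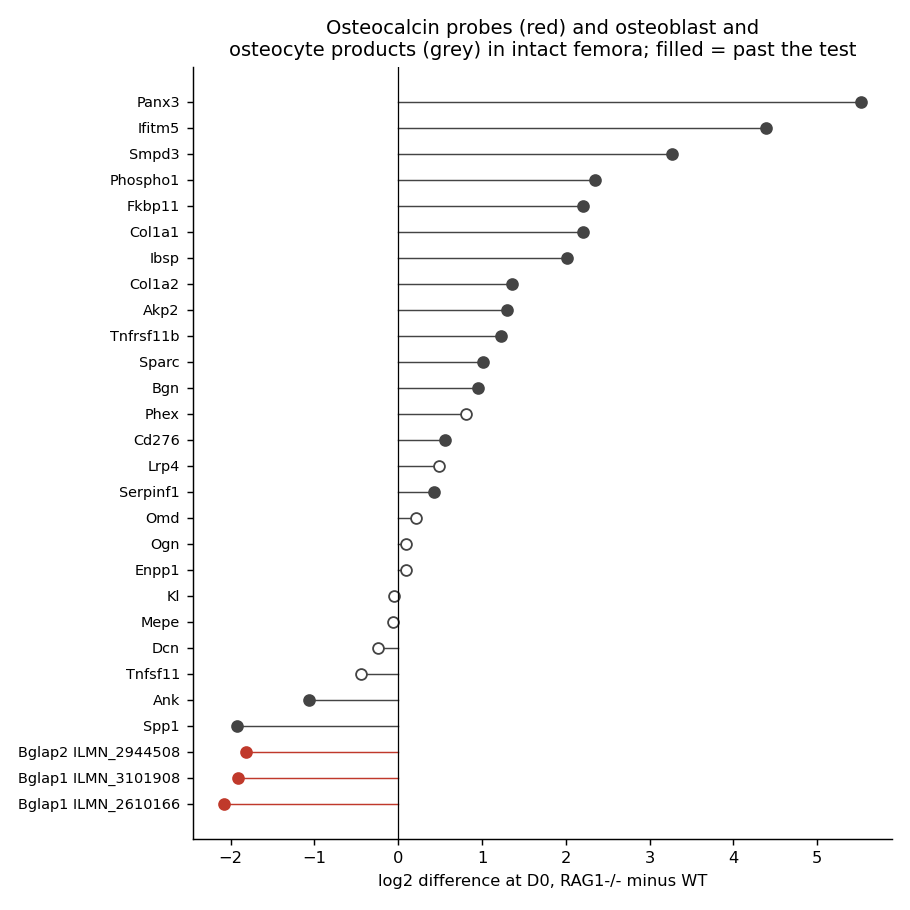
Log2 difference at D0, RAG1-/- minus WT, of the 3 tested osteocalcin probes (red) and the 25 tested osteoblast and osteocyte products (grey, brightest probe of each gene). Filled circles passed at an adjusted p under 0.05. The osteocalcin probes lie at -2.08 to -1.81, with Spp1 and Ank the only filled grey circles left of 0, and Panx3 lies at 5.52.

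Markers of other cells of the shaft also differed at D0. The summed level of 8 erythroid markers, of which Epb4.2 and Rhag were near the floor, ranged over a log2 value of 11.04 to 11.13 in RAG1-/- femora and 16.08 to 16.11 in WT femora, and all 6 tested markers were lower. Of 5 tested osteoclast markers 3 were lower, with a summed level of 9.85 to 10.02 in RAG1-/- femora and 11.28 to 11.43 in WT femora. All 5 megakaryocyte markers were lower, with sums of 7.65 to 7.78 in RAG1-/- femora and 9.88 to 10.08 in WT femora. Of 4 tested cartilage markers 3 were higher, with sums of 9.37 to 9.48 in RAG1-/- femora and 7.54 to 7.68 in WT femora, and Matn3 and Col10a1 were near the floor. The osteoblast markers, which leave out osteocalcin, were higher in 6 of 8 tested, with sums of 13.60 to 13.74 in RAG1-/- femora and 11.26 to 11.45 in WT femora. Of these osteoblast markers Dmp1 and Sost, which mark osteocytes, were near the floor. The part of these cells in the lower osteocalcin level was not tested.

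Among the regulators of osteocalcin transcription, 3 of 15 tested were higher in RAG1-/- femora and 2 lower, with 10 not passing, against 12.8% higher and 7.39% lower over all genes. Their median log2 difference was 0.26, against 0.05 for all genes. The higher ones were Dlx3, a homeodomain factor that binds the osteocalcin promoter (2.09), Cebpb, a factor that acts on it together with RUNX2 (1.46), and Sp7, osterix, which commits cells to the osteoblast line (1.38). Dlx3 was low and widely spread in WT femora, at 5.09 to 6.79, against 7.85 to 8.00 in RAG1-/- femora. The lower ones were Vdr, the receptor through which vitamin D acts on the gene (-0.67), and Hdac3, a deacetylase that represses RUNX2 (-0.49). Atf4 differed by -0.59 and did not pass (adjusted p = 0.143, limma). Runx2 itself, with Dlx5, Hoxa10 and Nr3c1, was near the floor and was not tested.

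Of 12 tested genes for gamma-carboxylation, processing and reported receptors, at D0 4 were higher and 0 lower, with 8 not passing, against 12.8% higher and 7.39% lower over all genes. The 4 were Ggcx, the carboxylase itself (log2 difference 1.22), Vkorc1, which recycles its vitamin K (0.77), Furin, which cuts pro-osteocalcin (1.29), and Gas6 (1.40), which is no part of that machinery but another vitamin K-dependent protein. Of the genes that did not pass, Mgp, the related matrix Gla protein, differed by 0.14.

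At D3 and D7 the osteocalcin genes no longer moved together. At D3 Bglap2 had 11.52, 11.29 and 11.41 in RAG1-/- callus and 13.07, 13.42 and 13.11 in WT callus. Bglap1 variant 2 had 10.84, 10.79 and 10.66 in RAG1-/- callus and 11.23, 11.29 and 11.16 in WT callus. Bglap1 variant 1 had 9.86, 9.77 and 9.69 in RAG1-/- callus and 10.05, 9.77 and 9.81 in WT callus. The groups overlapped only in this last probe, and RAG1-/- arrays lay below all WT arrays in 22.9% of all probes. Bglap2 was lower by 1.80 on the log2 scale in RAG1-/- callus (a difference of -1.80, SE 0.134, adjusted p = 6.92e-12, limma). Bglap1 variant 2 differed by -0.46 (SE 0.123, adjusted p = 0.00258, limma) and variant 1 by -0.10, which did not pass (adjusted p = 0.592, 95% interval -0.40 to 0.20). So 2 of the 3 tested probes were lower, where 21% of all probes were lower and 26.9% higher.

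The split was wider at D7. Bglap2 had 11.93, 12.10 and 11.94 in RAG1-/- callus and 13.53, 13.42 and 13.53 in WT callus, a difference of -1.50 (SE 0.134, adjusted p = 3.05e-10, limma). Bglap1 variant 2 had 11.33, 11.26 and 11.12 in RAG1-/- callus and 11.15, 10.87 and 10.87 in WT callus, a difference of 0.27 with overlapping arrays (adjusted p = 0.0725, limma), which passed without WT replicate 1 (0.37, adjusted p = 0.0255, limma). Bglap1 variant 1 had 10.44, 10.38 and 10.24 in RAG1-/- callus and 10.16, 9.81 and 9.98 in WT callus. Its difference of 0.37 passed narrowly (SE 0.146, adjusted p = 0.0385, limma) and no longer passed without RAG1-/- replicate 1 or 2 or without WT replicate 2 or 3 (adjusted p = 0.0699 to 0.154, limma). Bglap2 was thus lower in RAG1-/- callus at D7 and variant 1 of Bglap1 higher, where 19.3% of all probes were lower and 27.4% higher.

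**Figure D3:**
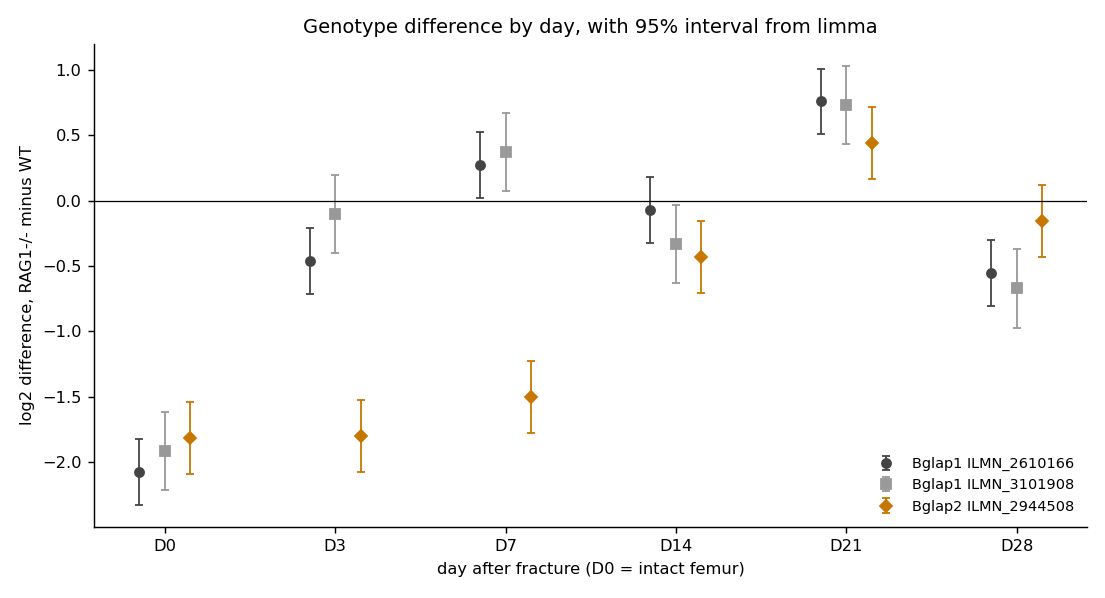
Log2 difference of the osteocalcin probes by day, RAG1-/- minus WT, with 95% intervals from limma. The 3 probes lie between -2.08 and -1.81 at D0, Bglap2 stays at -1.80 and -1.50 at D3 and D7 while the Bglap1 probes lie between -0.46 and 0.37, and all 3 are above 0 at D21.

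At D14 no osteocalcin probe passed between the genotypes. Bglap1 variant 2 had 12.33, 12.23 and 12.26 in RAG1-/- callus and 12.02, 12.55 and 12.46 in WT callus, and Bglap2 had 12.56, 12.45 and 12.65 in RAG1-/- callus and 12.71, 13.12 and 13.14 in WT callus. Bglap1 variant 1 had 11.50, 11.24 and 11.25 in RAG1-/- callus and 11.29, 11.94 and 11.76 in WT callus. Only the Bglap2 arrays did not overlap, with RAG1-/- below WT as in 11.3% of all probes. The differences were -0.07 for Bglap1 variant 2 (95% interval -0.32 to 0.18), -0.33 for variant 1 and -0.43 for Bglap2, and none of the 3 passed, where 3.99% of all probes passed in either direction. In each probe replicate 1 was the lowest of the WT D14 arrays. Without it, the differences of Bglap1 variant 1 (-0.52, adjusted p = 0.0137, limma) and Bglap2 (-0.57, adjusted p = 0.0042, limma) passed, and with replicate 1 as the only WT array the Bglap1 differences were 0.25 and 0.04.

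At D21, the peak of osteocalcin in RAG1-/- mice, all 3 probes were higher in RAG1-/- callus. Bglap1 variant 2 had 12.75, 12.75 and 12.86 in RAG1-/- callus and 12.05, 12.05 and 11.98 in WT callus. Bglap1 variant 1 had 11.88, 11.98 and 12.18 in RAG1-/- callus and 11.42, 11.23 and 11.20 in WT callus, and Bglap2 had 13.26, 13.12 and 13.18 in RAG1-/- callus and 12.88, 12.59 and 12.76 in WT callus. No groups overlapped, and RAG1-/- arrays lay above all WT arrays in 27.2% of all probes. The differences were 0.76 for Bglap1 variant 2 (SE 0.123, adjusted p = 3.94e-05, limma), 0.73 for variant 1 (adjusted p = 0.000471) and 0.44 for Bglap2 (adjusted p = 0.0155), where 14.4% of all probes were higher. The Bglap2 call did not hold without RAG1-/- replicate 1 (0.41, adjusted p = 0.0652, limma) or without WT replicate 2 (0.37, adjusted p = 0.0793, limma). The dim Bglap1 probe ILMN_3028702 passed only here, with 5.42, 5.00 and 5.37 in RAG1-/- callus and 4.33, 4.40 and 4.38 in WT callus (0.89, adjusted p = 4.01e-05, limma over all 25697 probes).

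Markers of other cells differed at D21 as well. Of 4 tested cartilage markers 3 were higher, with sums of 10.97 to 11.04 in RAG1-/- callus and 7.78 to 8.49 in WT callus. All 6 skeletal muscle markers were lower, with sums of 15.003 to 15.19 in RAG1-/- callus and 15.83 to 15.96 in WT callus. Of 6 tested erythroid markers 5 were lower, with sums of 11.65 to 11.72 in RAG1-/- callus and 14.86 to 14.996 in WT callus. The osteoblast markers were higher in 6 of 8 tested and lower in 1, and none of 5 osteoclast markers passed. The part of these cells in the higher osteocalcin level was not tested.

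At D28 the level was again lower in RAG1-/- callus for Bglap1 and did not pass for Bglap2. Bglap1 variant 2 had 10.46, 10.36 and 10.47 in RAG1-/- callus and 10.94, 11.07 and 10.95 in WT callus, a difference of -0.55 (SE 0.123, adjusted p = 0.00117, limma). Bglap1 variant 1 had 9.52, 9.46 and 9.43 in RAG1-/- callus and 10.19, 10.21 and 10.03 in WT callus, a difference of -0.67 (adjusted p = 0.000987, limma). Bglap2 had 11.45, 11.30 and 11.40 in RAG1-/- callus and 11.41, 11.66 and 11.56 in WT callus, with overlapping arrays and a difference of -0.16 (95% interval -0.43 to 0.12, adjusted p = 0.409, limma). Of all probes 9.19% were lower at D28 and 19.1% higher.

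The other osteoblast products were also compared between the genotypes after fracture. At D21 12 of 25 were higher in RAG1-/- callus and 3 were lower (Mepe, an osteocyte matrix protein, at -1.34, with Spp1 at -0.80 and Ank at -0.71), so that most of those that passed went with osteocalcin. At D28 11 were higher and 2 lower (Spp1 at -0.69, Ank at -0.50), with Panx3 at 3.09 and Col1a1 at 0.81, against the lower Bglap1. At D14 0 were higher and 2 lower, Ibsp at -1.18 and the proteoglycan Dcn at -0.76. At D3 9 were higher and 7 lower, and at D7 8 and 7, with Col1a1 at 2.44 and 1.80, Ibsp at -1.02 and -1.55, and Spp1 at -1.89 and -1.47. All counts here take the brightest probe of each gene. At D3 the median of the 25 was -0.23 by that probe and 0.34 by the mean of the probes of each gene. The sign of that median thus rests on the choice of probe. Beside these counts, 26.1% and 27.2% of all genes were higher at D3 and D7 and 23.5% and 21.4% lower, 2.65% and 2% at D14, 14.7% and 9.87% at D21 and 19.5% and 9.91% at D28.

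Against the RAG1-/- D0 pool, osteocalcin in RAG1-/- callus stood higher at each later day up to D21, with a separate pool for each day. The level of Bglap1 variant 2 was 9.46 ± 0.05 at D0, 10.76 ± 0.09 at D3, 11.24 ± 0.11 at D7, 12.27 ± 0.06 at D14, 12.79 ± 0.07 at D21 and 10.43 ± 0.06 at D28 (mean ± SD, n = 3 arrays of a pool). Bglap2 had 10.16 ± 0.09, 11.40 ± 0.12, 11.99 ± 0.10, 12.56 ± 0.10, 13.19 ± 0.07 and 11.39 ± 0.08 on the same days. Neighbours in the order D21, D14, D7, D3, D28 and D0 did not overlap between arrays, except D3 and D28 of Bglap2. A change against D0 passed at an adjusted p under 0.01 and a difference over 2-fold. All 3 probes rose at D3 (2.14- to 2.47-fold), D7 (3.20- to 3.55-fold), D14 (5.26- to 7.04-fold) and D21 (8.15- to 10.1-fold). These shares compare with 0.911%, 0.965%, 2.32% and 3.31% of all probes that rose on these days. At D28 Bglap2 rose by 1.23 on the log2 scale (2.34-fold, adjusted p = 1.28e-07, limma), where 1.92% of all probes rose, and the Bglap1 probes, at 0.97 and 0.80, stayed under 2-fold, that of variant 2 narrowly, since it passed at 1.01 without RAG1-/- D28 replicate 2.

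The WT D0 pool was higher, and over the WT days Bglap1 and Bglap2 parted. Bglap1 variant 2 was at 11.53 ± 0.08 at D0, 11.23 ± 0.06 at D3, 10.96 ± 0.16 at D7, 12.34 ± 0.29 at D14, 12.03 ± 0.04 at D21 and 10.98 ± 0.07 at D28. Bglap2 was at 11.97 ± 0.18, 13.20 ± 0.19, 13.49 ± 0.07, 12.99 ± 0.24, 12.74 ± 0.15 and 11.54 ± 0.12 on the same days. Bglap1 was thus highest at D14 and Bglap2 at D7. In the WT order of Bglap1 variant 2 (D14, D21, D0, D3, D28, D7) arrays of D14 and D21 and of D28 and D7 overlapped, and in that of Bglap2 (D7, D3, D14, D21, D0, D28) every neighbour overlapped from D7 to D21.

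Bglap2 rose in WT callus by 1.23 at D3, 1.52 at D7 and 1.01 at D14 on the log2 scale (2.34-, 2.87- and 2.02-fold, adjusted p = 1.27e-08, 2.07e-10 and 1.14e-06, limma). Bglap1 variant 2 stood at -0.31 and -0.57 against D0 on D3 and D7 and variant 1 at -0.71 and -0.61. All 6 WT arrays of D3 and D7 lay below all 3 of D0 in both probes, as in 22.1% of all probes at D3 and 21.4% at D7, but none of the 4 differences reached 2-fold. The only Bglap1 change that passed in WT callus was that of variant 1 at D14, at 1.07 (2.10-fold, adjusted p = 1.83e-06, limma). Variant 2 stood at 0.81 at D14 and missed only the 2-fold limit (adjusted p = 8.8e-06, limma). Both D14 calls stood just over 2-fold and were lost when either WT D0 replicate 3 or WT D14 replicate 2 was left out, which gave 0.92 and 0.95 for Bglap2 and 0.99 and 0.93 for variant 1, and that of Bglap2 also without WT D14 replicate 3 (0.94). In WT callus 11.9%, 11.1% and 7.49% of all probes rose at D3, D7 and D14. No member passed at D21 (0.50, 0.69 and 0.77) or D28 (-0.55, -0.44 and -0.43), where 4.44% and 3.21% of all probes rose and 5.84% and 6.85% fell. At D21 only the 2-fold limit was missed (adjusted p = 0.00319, 0.000674 and 7.31e-05, limma).

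**Figure D4:**
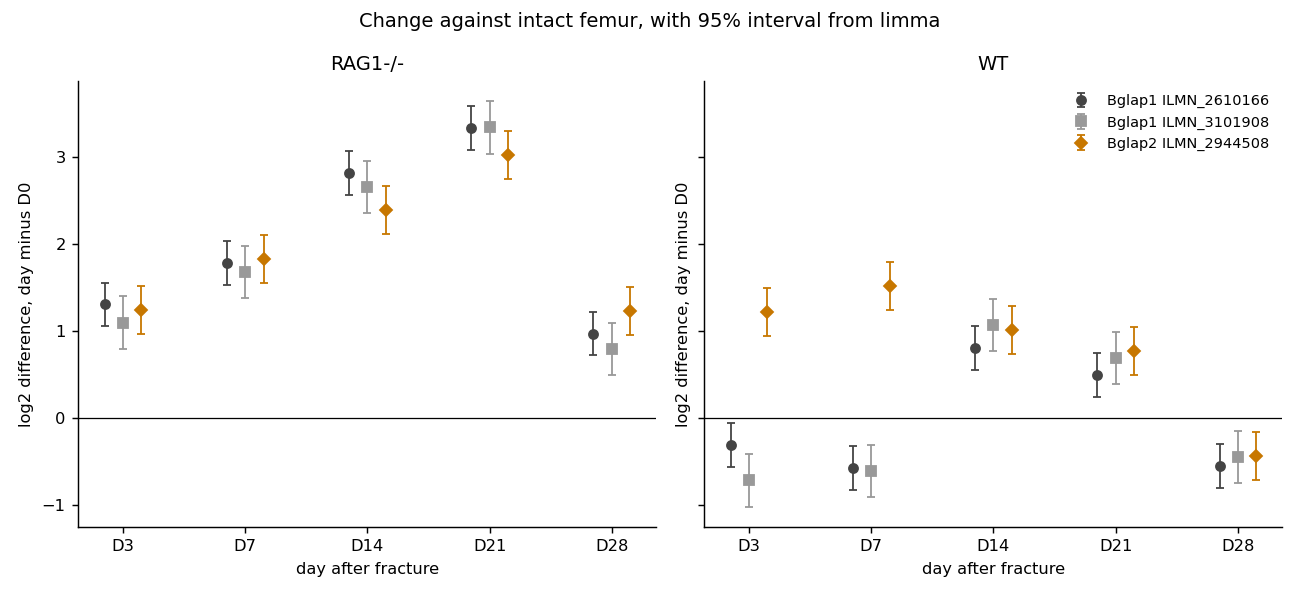
Log2 difference of each day from D0 in RAG1-/- (left) and WT mice (right), with 95% intervals from limma, for the 3 tested osteocalcin probes. In RAG1-/- mice the 3 probes run together to about 3 at D21, and in WT mice Bglap2 lies at 1.23 and 1.52 at D3 and D7 while the Bglap1 probes lie between -0.71 and -0.31.

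The change against D0 itself differed between the genotypes. For both Bglap1 probes it was larger in RAG1-/- mice on all 5 days, by 1.61 and 1.81 on the log2 scale at D3, 2.35 and 2.28 at D7, 2.00 and 1.58 at D14, 2.83 and 2.65 at D21 and 1.52 and 1.24 at D28. For Bglap2 it was larger by 1.38 at D14, 2.26 at D21 and 1.65 at D28 (adjusted p = 6.06e-06, 1.93e-09 and 4.02e-07, limma). At D3 and D7 the Bglap2 changes differed by 0.02 (95% interval -0.37 to 0.41) and 0.31 (-0.08 to 0.70) and did not pass. The test asked for an adjusted p under 0.05 and over 2-fold, which 13.2%, 12.2%, 4.04%, 4.09% and 5.67% of all probes passed in this direction from D3 to D28. The D0 pools enter all of these differences, so the 5 days are not independent.

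The other osteoblast products were set beside this change. In RAG1-/- mice 2, 3, 7, 11 and 2 of the 25 rose against D0 from D3 to D28, where 0.972%, 1.02%, 2.58%, 3.63% and 2.13% of all genes rose. In WT mice 11, 12, 16, 14 and 1 rose, where 13.3%, 12.2%, 7.74%, 4.7% and 3.26% of all genes did. The change was larger in RAG1-/- mice for 2, 2, 1, 2 and 2 of the 25 on these days, against 13%, 12.2%, 4.35%, 4.24% and 6.01% of all genes. It was smaller for 8, 9, 9, 4 and 6, against 11.9%, 9.57%, 6.21%, 4.24% and 2.97% of all genes. Ibsp rose in WT callus by 3.70 at D3 and 3.41 at D14 and in RAG1-/- callus stood at 0.66 and 0.22 on these days. Col1a1 rose in WT callus by 2.93 at D14 and 2.05 at D21, and in RAG1-/- callus stood at 0.65 at D14 and rose by 1.01 at D21. Spp1 rose by 3.77 at D14 and 3.25 at D21 in RAG1-/- callus and by 2.61 and 2.13 in WT callus.

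Among the 15 tested regulators of osteocalcin, in WT callus 5 rose at D3 and 6 at D7, and 1 fell on each day, against 13.3% and 12.2% of all genes that rose and 14% that fell on both days. Those that rose at D3 included Dlx3 (4.78), Sp7 (3.36), Vdr (1.54) and Cebpb (1.36), and Cbfb, the partner subunit of RUNX2, fell by 1.32. The size of the Dlx3 rise rests on its low and widely spread WT D0 values (5.09 to 6.79). At D14, D21 and D28 3, 2 and 2 rose in WT callus, against 7.74%, 4.7% and 3.26% of all genes. In RAG1-/- callus 0, 1, 2, 3 and 0 rose from D3 to D28, against 0.972%, 1.02%, 2.58%, 3.63% and 2.13% of all genes, and 0 fell on any of these days. The 3 at D21 were Vdr (2.20), Dlx3 (1.46) and Sp7 (1.10). The difference between these counts was not tested. Between genotypes at D7, 8 of 15 were lower in RAG1-/- callus and 2 higher, against 21.4% lower and 27.2% higher over all genes. The D7 median was -0.99 for the brightest probe of each gene and -0.11 for the mean of its probes, so that it rests on the choice of probe. At D3 3 were higher and 7 lower, at D14 1 and 2, at D21 6 and 2 and at D28 4 and 2. Of all genes 26.1%, 2.65%, 14.7% and 19.5% were higher on these 4 days and 23.5%, 2%, 9.87% and 9.91% lower.

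Of the 12 genes for carboxylation, processing and reported receptors, 1, 0, 0, 1 and 0 rose in RAG1-/- callus from D3 to D28. On these days 1, 0, 0, 0 and 1 fell, against 2.07%, 1.8%, 2.45%, 4.25% and 2.13% of all genes. In WT callus 4, 3, 4, 2 and 0 rose and 1, 2, 0, 0 and 1 fell. Of all genes 14%, 14%, 5.19%, 5.39% and 6.62% fell there. The shares of all genes that rose are those given above for the regulators. Vkorc1 rose in RAG1-/- callus by 1.31 at D3 and 1.18 at D21. In WT callus it stood at -0.94 at D3, fell by 1.02 at D7 and rose by 1.62 at D14. Ggcx rose in WT callus at D3 (2.33), D7 (1.73), D14 (1.04) and D21 (1.64), and did not pass in RAG1-/- callus, where its largest difference was 0.67. Mgp, which inhibits mineralization, fell in WT callus by 1.60 at D3 and 1.74 at D7. Gprc6a, reported as a receptor of osteocalcin, had a mean of 4.96 close to the floor and passed only in WT callus at D3, where it rose by 1.38.

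The parting of Bglap2 from Bglap1 was read within each array, where only its shift between arrays has a meaning and not its size. Bglap2 minus Bglap1 variant 2 was 1.85 to 2.66 in the 6 WT arrays of D3 and D7, against 0.23 to 0.99 in the other 30 arrays. With Bglap1 variant 1 it was 3.03 to 3.64 in these 6 arrays and 1.00 to 1.97 in the others. The 2 Bglap1 probes kept closer to each other, with a difference of 0.89 to 1.52 in the 6 arrays and 0.61 to 1.07 in the others.

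**Figure D5:**
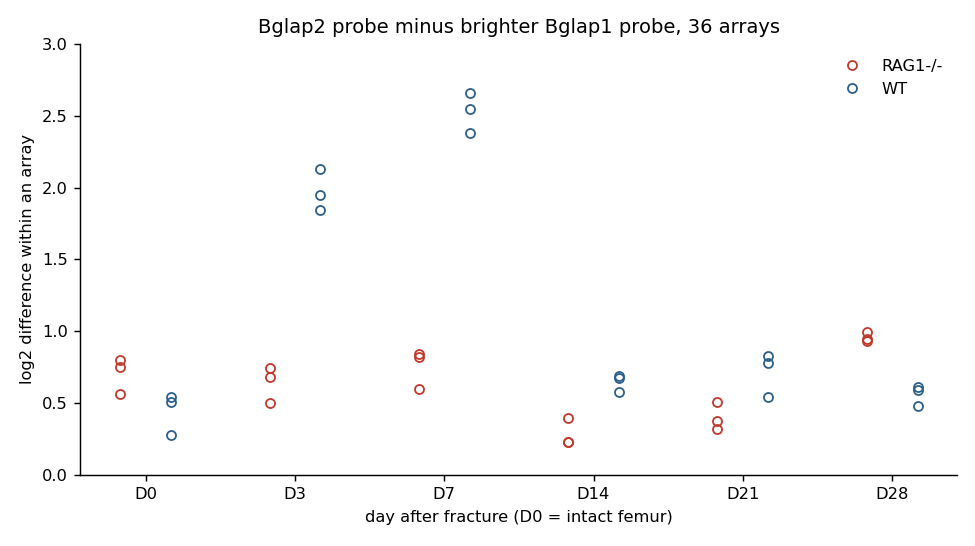
Log2 value of the Bglap2 probe minus that of the brighter Bglap1 probe in each of the 36 arrays, by day, with RAG1-/- left of WT. The 6 WT arrays of D3 and D7 lie at 1.85 to 2.66 and all other arrays at 0.23 to 0.99.

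These are the arrays that stood apart as a whole, and probes of single genes disagreed there as well. For this count a probe qualified once its adjusted p fell below 0.05, whatever the size of its change. That rule is looser than the one used above for changes, which also asked for over 2-fold. Of 2021 genes with at least 2 tested probes, the 2 brightest both qualified in 558 in WT callus at D3. They went opposite ways in 20.1% of these genes, and in 22.9% of 519 at D7. In RAG1-/- callus the same shares were 0 of 93 at D3 and 0.98% of 102 at D7. Probes of a single gene were at least as far apart in their change as Bglap2 was from Bglap1 in 22.1% of genes at D3 and in 12.3% at D7. The chains of type I collagen parted in the WT arrays of D7, with Col1a2 up by 3.75 and Col1a1 at -0.33. At D3 Col1a2 was up by 2.90. The summed level of 3 early B cell markers was 8.90 to 9.05 at WT D3 and 8.66 to 9.14 at WT D7, against 6.68 to 7.28 at WT D0. Vpreb1, a chain of the pre-B cell receptor, carried this sum, since it alone rose (4.03 and 4.08) and the other 2 markers, Vpreb3 and Cd79b, were at -1.15 to -0.57 and did not pass. The summed level of 6 skeletal muscle markers was 14.47 to 14.57 and 14.57 to 14.89, against at least 15.93 at WT D0. The part of the arrays, of the probes and of the muscle in the parting of Bglap2 from Bglap1 was not tested.

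Over the 12 pools the likeness of the probes followed from this. Bglap1 variant 2 and Bglap2 had a Pearson correlation of 0.754 (Spearman 0.587) over all 12 pools, 0.988 over the 6 RAG1-/- pools, 0.131 over the 6 WT pools and 0.985 over the 10 pools without WT D3 and D7. The 2 Bglap1 probes correlated at 0.985 over 12 pools. These are descriptions over pools that share days and arrays of a single normalization.

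The genes with the pattern most like Bglap1 variant 2, of 10288 other genes compared by their brightest probe over the 12 pool means, were Ctsk (r = 0.917), Snx10 (0.883), Srf (0.881), Smap2 (0.862) and Arsb (0.849). Ctsk, the collagen-degrading protease cathepsin K of osteoclasts, was at 8.88 at D0 and 13.14 at D21 in RAG1-/- mice and at 10.67 and 12.91 in WT mice. For Bglap2, of the same 10288 genes, they were Sphk1 (0.942), Tuba6 (0.937), Slc4a2 (0.914), Ckb (0.911) and Serpine2 (0.909). Ckb had the same pool mean of 14.80 at WT D3 and WT D7, so its values do not tell these pools apart. Sphk1, a kinase that makes sphingosine-1-phosphate, was at 6.61 at D0 and 7.89 at D7 in RAG1-/- mice and at 8.35 and 9.28 in WT mice. Without WT D3 and D7 the same correlations were 0.941 for Ctsk and 0.920 for Sphk1.

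Over the 6 days, with each pool as a single value and the day as a block, no osteocalcin gene passed between the genotypes. The RAG1-/- pool was below the WT pool on 4 of 6 days for each Bglap1 probe, with a mean log2 difference of -0.36 (SE 0.323, adjusted p = 0.433, limma) for variant 2 and -0.32 (SE 0.311, adjusted p = 0.465, limma) for variant 1. Bglap2 was lower on 5 of 6 days, with a mean of -0.88 (SE 0.319, adjusted p = 0.101, limma). In 53.3% of all tested probes the RAG1-/- pool was on one side of the WT pool, above or below, on at least 5 of 6 days. The exact two-sided sign-flip permutation test over the 6 pairs gave p = 0.5 for both Bglap1 probes and 0.125 for Bglap2, where 0.03125 is the smallest p that it can give. Among all probes 5.74% passed in either direction. Without D0 the mean differences were -0.01 for Bglap1 variant 2 and -0.69 for Bglap2, and without D3 and D7 -0.49 for both.

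Over both genotypes no change against D0 could be called between pools. Bglap1 variant 2 was higher by 1.91 at D21 (95% interval 0.65 to 3.17, unadjusted p = 0.0073, adjusted p = 0.314, limma) and Bglap2 by 1.90 (unadjusted p = 0.0071, adjusted p = 0.308, limma). At D3 their means differed by 0.50 and 1.23 and at D28 by 0.21 and 0.40. With limma 0 of 12848 probes passed on any day, while 11.5%, 13.1%, 7.88%, 8.8% and 6.58% had an unadjusted p under 0.05 from D3 to D28.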

How the data were processed

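The deposited values are log2 intensities of Illumina MouseRef-8 v2 arrays that the authors pre-processed with beadarray and quantile normalized with lumi. The log base was read from the range of the values. Further tables with 264 value columns named by BeadChip position, which no source used here pairs with samples, were not used, except for the deposited gene symbols, synonyms and chromosomes of the probes. Detection and depth per array are not used here, and the number of arrays limits the precision.

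Genotype, day and replicate came from the labels. R 4.3.3 with limma 3.58.1 fitted a mean for each of the 12 groups over the 12848 probes whose mean was above the median of all probes, with Benjamini-Hochberg adjustment over them. Pool means were fitted with genotype and day. On simulated data the D0 comparison recovered 44.8%, 94.0% and 100% of changes of 1, 2 and 4 on the log2 scale among 12848 probes. Lists used the brightest probe of each gene. The genes, lists and tests were chosen with earlier results of these data known. Named are all osteocalcin probes, the 5 genes most alike in pattern, and up to 4 members of each list in each direction, with Col1a1, Ibsp and Spp1. Alternatives covered the filter, probes per gene, cyclic loess, array weights, the replicate block, the arrays in the fit, the methods' t-test and arrays or days left out. Promoters came from RefSeq (GRCm38.p6), which matched Bglap. A few items are left unreported. Figures were drawn with matplotlib 3.10.9.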

Additional observations from a re-analysis of the deposited data

Results flagged for a closer look

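In 13 results the change against D0 differed between the genotypes by a test of that difference itself (interaction term, limma, adjusted p under 0.05 and over 2-fold), and each was larger in RAG1-/- mice. For Bglap1 variant 2 the change was larger by 1.61 at D3, 2.35 at D7, 2.00 at D14, 2.83 at D21 and 1.52 at D28 on the log2 scale. For Bglap1 variant 1 it was larger by 1.81 at D3, 2.28 at D7, 1.58 at D14, 2.65 at D21 and 1.24 at D28. For Bglap2 it was larger by 1.38 at D14, 2.26 at D21 and 1.65 at D28. All 13 are set against the same pair of D0 pools, in which osteocalcin was lower in RAG1-/- femora (log2 differences of -2.08, -1.91 and -1.81).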

How the results depend on the processing

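The 81 results of Bglap1 and Bglap2 were recomputed in 471 comparisons under settings other than leaving out 1 array or 1 replicate number. Of these, 455 kept their direction and side of the threshold. The exceptions touch D7, D14 and 1 comparison of pools. With cyclic loess the Bglap2 difference at D14 passed (-0.51). Array weights let the D14 differences of Bglap1 (-0.25 and -0.56) and Bglap2 (-0.57) pass and lost that of Bglap1 variant 1 at D7 (0.39). With WT D14 replicates 2 and 3 left out, the Bglap1 differences at D14 turned (0.25 and 0.0446) and the WT changes at D14 no longer passed for Bglap2 (0.73) and Bglap1 variant 1 (0.70). With only the arrays of the 2 groups, or with the methods' t-test, the D7 difference of Bglap1 variant 1 (0.37) and the WT changes of Bglap2 (1.01) and Bglap1 variant 1 (1.07) at D14 kept their values but did not pass. With D14, D21 and D28 alone, chosen after seeing the data, the difference over pools turned for Bglap1 variant 2 (0.0447). The causes were not tested.

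Left out was 1 array at a time or, for the pool results, 1 replicate number from every pool. This changed the call or direction in 22 of 522 comparisons, none of them of pools. The genotype difference then ranged over 0.22 to 0.37 (Bglap1 variant 2) and 0.29 to 0.46 (variant 1) at D7, over -0.23 to 0.0312, -0.52 to -0.19 and -0.57 to -0.36 (Bglap1 variant 2, variant 1 and Bglap2) at D14, and over 0.37 to 0.51 for Bglap2 at D21. The change against D0 ranged over 0.95 to 1.01 for Bglap1 variant 2 at D28 in RAG1-/- mice, and over 0.93 to 1.26 for variant 1 and 0.92 to 1.16 for Bglap2 at D14 in WT mice. The difference between genotypes in the Bglap2 change at D3 ranged over -0.0607 to 0.12.

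The replicate number named arrays and paired none. Deviations from the group means correlated at -0.003 on average between arrays of the same number (-0.099 to 0.102), and 3 of 36 arrays correlated best with their own number. With the replicate block all 63 results kept their calls, for example -2.08 for Bglap1 variant 2 at D0 (adjusted p = 3.12e-12, limma).

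Counts of called probes moved by over 1.5 times in some settings. Between genotypes at D14 they were 512 as reported, 4155 with array weights, 87 with only the arrays of the 2 groups and 66 with the methods' t-test, and at D28 3632 as reported and 2368 with the t-test. For the change in RAG1-/- mice they were 381, 582 with weights and 577 with 2 groups at D3, and 378, 605 and 606 at D7. In WT mice they were 3406, 2065 with 2 groups and 1444 with the t-test at D3, 3267, 1748 and 1097 at D7, 1604, 435 and 89 at D14, 1321, 432 and 254 at D21, and 1292, 161 and 121 at D28, where weights gave 677. For the difference in the change at D14 they were 1292 and, with weights, 2425.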
